A study of Arabidopsis thaliana with 12 samples.

Results

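The 5 genes described here, GH3.3, GH3.1, WES1 (also called GH3.5), GH3.17 and GH3.9, are the genes of the GH3 family of Arabidopsis thaliana that had a symbol and a probe set of their own in the platform annotation. They are 5 of 13350 genes, named by symbol or by locus alone, with a probe set of their own, and all 5 passed the filter on dim probe sets, as did 8614 of the 13350. Their loci are AT2G23170 (GH3.3), AT2G14960 (GH3.1), AT4G27260 (WES1), AT1G28130 (GH3.17) and AT2G47750 (GH3.9). Transcripts were measured in whole Col-0 plants aged 7 days, kept in shaken liquid medium, at 21 °C and in continuous light. The 12 arrays formed 4 groups of 3. Plants of the L-AOPP+IAA group received 50 µM L-AOPP for 3 h and, from 1 h on, 1 µM IAA, so that IAA acted for 2 h. Plants of the L-AOPP+IPyA group received the same L-AOPP treatment and IPyA in place of IAA, at a dose that the sample descriptions give as 100 µM and the treatment protocol as 0.1 µM. Plants of the L-AOPP group received L-AOPP alone, and mock plants received the solvent DMSO. No group received IAA or IPyA without L-AOPP. Since the labels name no separate cultures for the arrays within a group, the p-values rest on a spread between samples that may be only technical.

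GH3 enzymes join small acids to amino acids. Those of the group studied here act on indole-3-acetic acid (IAA), the main natural auxin, and the amino acid conjugates they make are stored, hydrolysed again or broken down. Several GH3 genes are themselves early auxin-response genes: auxin binds the TIR1/AFB receptors, the Aux/IAA repressors are degraded, and ARF transcription factors become active, so that the transcripts of enzymes that remove free auxin rise with auxin. L-AOPP, also known to inhibit phenylalanine ammonia-lyase, served in these experiments to block auxin synthesis, and IPyA (indole-3-pyruvic acid) is the precursor from which the YUC enzymes make IAA.

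Median signals ran from 169.2 to 185.45 over the 12 arrays, and the lowest Spearman correlation between any pair of arrays was 0.969. Of the markers drawn up for shoot and root, 1 of 9 shoot genes and 2 of 11 root genes had a probe set of their own, and none of these 3 was among the dim ones. LHCB4.2, a light-harvesting protein gene of the shoot, had signals of 13883 to 21314 over the 12 arrays. The root hair expansin genes EXPA7 and EXPA18 had signals of 259 to 1929 and 272 to 1208. In whole plants, fewer cells of a type and less RNA per cell cannot be told apart.

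With IAA, GH3.3, GH3.1 and WES1 rose above L-AOPP alone, and the values of GH3.17 and GH3.9 lay within the spread of their own arrays. GH3.3, an IAA-amido synthetase gene long used as an auxin reporter, had signals of 10387, 10187 and 8769 in L-AOPP+IAA plants (replicates 1, 2 and 3) and of 1261, 708 and 609 in L-AOPP plants. Every L-AOPP+IAA array was higher than every L-AOPP array. The log2 change was 3.58 (95% interval 2.60 to 4.56), an 11.9-fold rise (limma, Benjamini-Hochberg adjusted p = 0.00364). Taken between arrays of the same replicate number, the rise was 8.24-fold, 14.4-fold and 14.4-fold in replicates 1, 2 and 3. The smallest of these ratios belongs to replicate 1, which had the highest GH3.3 signal without IAA.

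GH3.1, another IAA-amido synthetase gene, was dim without IAA. It had signals of 1135, 904 and 720 in L-AOPP+IAA plants, against 75.5, 145 and 63.1 in L-AOPP plants. The groups did not overlap. The log2 change was 3.36 (95% interval 2.09 to 4.62), a 10.2-fold rise (adjusted p = 0.0313), and the ratios within replicates 1, 2 and 3 were 15.03, 6.24 and 11.4. WES1 encodes an enzyme that conjugates IAA and is also known to act on salicylic acid. Its signals were 6457, 5673 and 5368 in L-AOPP+IAA plants and 2665, 1862 and 1280 in L-AOPP plants, again with no overlap. The log2 change of 1.65 (95% interval 1.03 to 2.27) is a 3.1397-fold rise (adjusted p = 0.0313), with ratios of 2.42, 3.05 and 4.19 within replicates 1, 2 and 3.

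**Figure D1:**
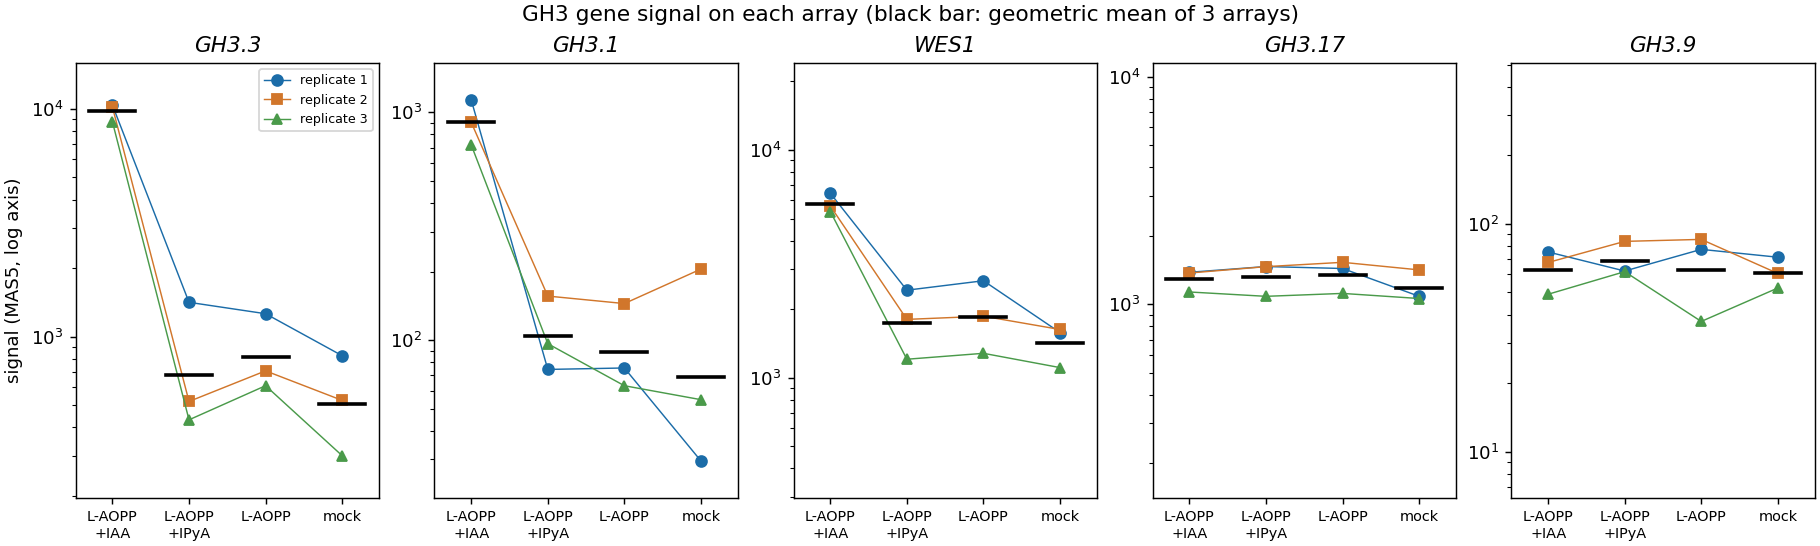
Signal of the 5 GH3 genes on each array (MAS5 signal, log axis spanning the same ratio in every panel), by treatment group from L-AOPP+IAA to mock, with lines joining arrays of the same replicate number and black bars at the geometric mean of 3 arrays. GH3.3, GH3.1 and WES1 stand apart with IAA (8769 to 10387, 720 to 1135 and 5368 to 6457), while GH3.17 (1060 to 1528) and GH3.9 (37.3 to 85.5) stay in 1 band over all 12 arrays.

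GH3.17, which encodes an enzyme that joins IAA to glutamate, had signals of 1381, 1371 and 1132 in L-AOPP+IAA plants and of 1436, 1528 and 1116 in L-AOPP plants. The groups overlapped, and the log2 change was -0.06 (95% interval -0.44 to 0.31, adjusted p = 1.00). The interval leaves out a rise above 1.24-fold or a fall beyond 1.35-fold. GH3.9, a dim gene on these arrays, encodes a family member known for effects of its mutant on root growth. It had 75.3, 67.7 and 49.1 in L-AOPP+IAA plants and 77.3, 85.5 and 37.3 in L-AOPP plants, which overlap. Its log2 change was 0.01 (95% interval -0.68 to 0.69), and the interval holds a change of up to about 1.6-fold in either direction. This is not a limit of detection, since a call after adjustment over all tested probe sets would have needed a larger change. The GH3.9 signal of 37.3 lay under the filter level of 47.4.

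By limma, 3 of the 5 genes passed in this comparison, where 63 of all 15922 tested probe sets did (0.396%) and 57 did as higher (0.358%). With the replicate number as a block the same 3 genes passed, against 590 probe sets (3.71%). For 3 members the L-AOPP+IAA and L-AOPP arrays did not overlap, as for 10.2% of all tested probe sets. The median change over the 5 genes was 1.65, and over all tested probe sets it was -0.01. The calls of GH3.1 and WES1 are fragile without pairing: that of GH3.1 was lost whichever of the 6 arrays was left out (adjusted p 0.0559 to 0.154), and that of WES1 in 5 of 6 such fits (up to 0.126), the exception being the fit without L-AOPP replicate 1. With pairing both held without any replicate number (adjusted p 0.000323 to 0.0219 for GH3.1 and 3.26e-05 to 0.00252 for WES1).

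Whether the members responded unequally was read from their log2 ratios within each array. The response of GH3.3 to IAA exceeded that of GH3.17 by 3.64 ± 0.28 (SE, n = 3 arrays per group) and that of GH3.9 by 3.57 ± 0.34 on the log2 scale. For GH3.1 the excess was 3.42 ± 0.29 over GH3.17 and 3.35 ± 0.27 over GH3.9. For WES1 it was 1.71 ± 0.23 and 1.64 ± 0.25. In each of these 6 pairs the ratios of the L-AOPP+IAA arrays all lay above those of the L-AOPP arrays, which gives a two-sided exact permutation p of 0.1, the smallest that 3 arrays against 3 allow. Adjusted over 9 pairs it is 0.113. The split into 3 genes and 2 was itself made with earlier results of these data known. The separation in these 6 pairs therefore follows from the split, and its p is a description and no separate support.

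The remaining 3 pairs, added after the values had been seen, compare the genes that rose with each other. The response of GH3.3 exceeded that of WES1 by 1.93 ± 0.12 and that of GH3.1 exceeded it by 1.70 ± 0.44 (exact p = 0.1 for each). GH3.3 and GH3.1 differed by 0.22 ± 0.53 (exact p = 0.8), less than the spread between arrays. Left-out arrays kept the GH3.3 and WES1 difference between 1.82 and 1.98, and moved that of GH3.3 and GH3.1 between -0.24 and 0.65, below 0 without L-AOPP replicate 2.

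Against mock, the plants given L-AOPP and IAA together showed rises of the same 3 genes. GH3.3 averaged 9781 ± 882 in L-AOPP+IAA plants and 550 ± 263 in mock plants (SD, n = 3 each), a 19.2-fold rise (log2 change 4.27, 95% interval 3.29 to 5.25, adjusted p = 0.000793). WES1 averaged 5832 ± 562 in L-AOPP+IAA plants and 1438 ± 287 in mock plants, 4.10-fold higher (adjusted p = 0.00642). GH3.1 averaged 920 ± 208 in L-AOPP+IAA plants and 96.5 ± 94.98 in mock plants, and its fitted rise was 13.1-fold (log2 change 3.71, 95% interval 2.44 to 4.97, adjusted p = 0.0141).

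The size of the GH3.1 rise over mock is poorly fixed. Its mock signals were 29.5, 205 and 54.8, the first of them under the filter level, and the ratios within replicates 1, 2 and 3 were 38.5, 4.41 and 13.1. GH3.17 and GH3.9 differed from mock by 0.13 (95% interval -0.24 to 0.51) and 0.05 (-0.63 to 0.73). The 3 of 5 members that passed compare with 71 of all tested probe sets (0.446%), of which 66 were higher (0.415%), or with 270 (1.7%) with the replicate number as a block, which called the same 3 members. These 3 members did not overlap between the groups, as 7.51% of all tested probe sets did not. In this comparison the call of GH3.1 ended in a fit of only these groups (adjusted p = 0.11) and without L-AOPP+IAA replicate 1 or 2 or mock replicate 3 (0.0658 to 0.0929), and that of WES1 ended without L-AOPP+IAA replicate 1 (0.05003).

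**Figure D2:**
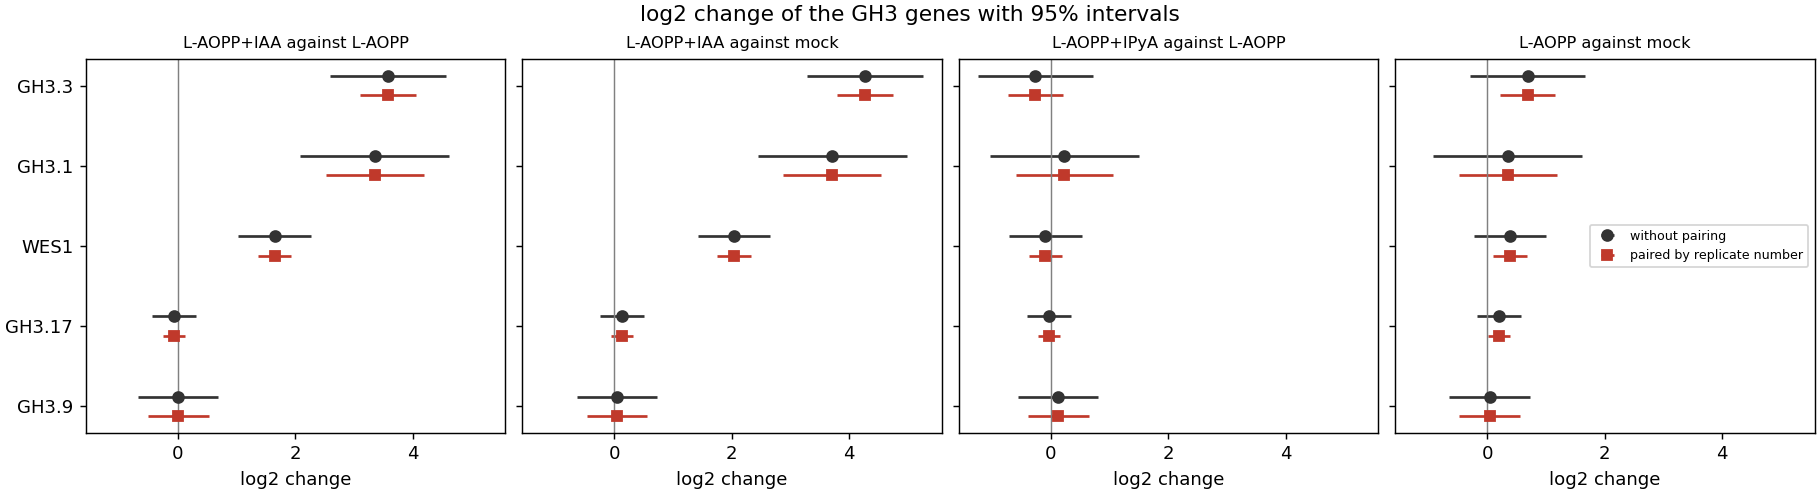
log2 change of each GH3 gene with its 95% interval in 4 comparisons, from the fit without pairing (circles) and with the replicate number as a block (squares). With IAA the intervals of GH3.3, GH3.1 and WES1 lie above 0 in both fits (2.60 to 4.56, 2.09 to 4.62 and 1.03 to 2.27 against L-AOPP, without pairing), while those of IPyA against L-AOPP all span 0.

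IPyA did not raise any of the 5 genes above L-AOPP alone by this test. GH3.3 had signals of 1415, 519 and 431 in L-AOPP+IPyA plants, against 1261, 708 and 609 in L-AOPP plants. It was higher with IPyA in replicate 1 (1.12-fold) and lower in replicates 2 and 3 (ratios of 0.734 and 0.708). The interval of the log2 change, -1.24 to 0.72, ends at a 1.65-fold rise, and with the replicate number as a block it runs from -0.73 to 0.21. WES1 had 2423, 1803 and 1205 in L-AOPP+IPyA plants and 2665, 1862 and 1280 in L-AOPP plants. It was lower with IPyA in all 3 replicates by small ratios of 0.909, 0.968 and 0.942, as were 16.6% of all tested probe sets in all 3. The interval ends at a 1.44-fold rise.

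GH3.1 had 74.4, 156 and 96.5 in L-AOPP+IPyA plants and 75.5, 145 and 63.1 in L-AOPP plants, with overlap. Its interval of -1.03 to 1.501 still holds a 2.83-fold rise, so a moderate response of this dim gene would have been missed. GH3.17 had 1464, 1463 and 1084 in L-AOPP+IPyA plants, close to its values with L-AOPP alone in each replicate (ratios of 1.02, 0.957 and 0.971). GH3.9 had 62.1, 83.8 and 61.7 in L-AOPP+IPyA plants (log2 change 0.13, 95% interval -0.56 to 0.81). None of the 5 passed, as none of all 15922 tested probe sets did (0%) by limma without pairing, where 367 had an unadjusted p under 0.05 (2.3%). With the block 28 probe sets passed (0.176%), none of them a member.

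The treatments with IPyA and IAA were set against each other directly, at doses that differ whichever label is right. GH3.3, GH3.1 and WES1 were lower with IPyA than with IAA. The log2 difference was -3.84 (95% interval -4.82 to -2.86, adjusted p = 0.00211) for GH3.3, which is 14.3-fold lower. It was -1.74 (-2.36 to -1.12, adjusted p = 0.021) for WES1, 3.34-fold lower, and -3.12 (-4.39 to -1.85, adjusted p = 0.0479) for GH3.1, 8.70-fold lower. GH3.17 and GH3.9 differed by 0.04 (-0.33 to 0.41) and 0.12 (-0.56 to 0.80).

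These 3 members were among 60 probe sets that passed (0.377%), of which 54 were lower (0.339%), and 309 passed with the block (1.94%), the same 3 members among them. Between these groups 3 members did not overlap, against 7.22% of all tested probe sets. The GH3.1 call is the weakest of them: it was lost whichever of the 6 arrays was left out (adjusted p 0.0825 to 0.225), without the intensity trend (0.0659) and without the filter on dim probe sets (0.0567). That of WES1 ended in 5 of 6 fits with an array left out (up to 0.113). The comparisons of IAA with L-AOPP and with mock and of IPyA with IAA all use the same L-AOPP+IAA arrays, so they are not separate evidence for the 3 genes.

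L-AOPP alone did not lower any of the 5 genes by this test. All 5 fitted values lay above 0, as did 52.9% of all tested probe sets, but that of GH3.9 (0.04) turned to -0.018 with quantile normalization and that of GH3.1 (0.35) to -0.26 without mock replicate 1. GH3.3 had 1261, 708 and 609 in L-AOPP plants, against 825, 525 and 300 in mock plants. The groups overlapped, but L-AOPP was higher within each replicate, by 1.53-fold, 1.35-fold and 2.03-fold. WES1 had 2665, 1862 and 1280 in L-AOPP plants and 1579, 1628 and 1108 in mock plants, also higher in each replicate, by 1.69-fold, 1.14-fold and 1.16-fold.

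GH3.17 had 1436, 1528 and 1116 in L-AOPP plants and 1084, 1416 and 1060 in mock plants, with ratios of 1.32, 1.08 and 1.05. GH3.1 and GH3.9 were mixed: GH3.1 was lower with L-AOPP in replicate 2 (ratio 0.706) and GH3.9 in replicate 3 (0.713). Thus 3 of 5 members were higher in all 3 replicates, as were 17.2% of all tested probe sets.

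None of these differences passed. The log2 difference of GH3.3 was 0.69 (95% interval 0.22 to 1.16 with the replicate number as a block, adjusted p = 0.186), and that of WES1 was 0.39 (0.10 to 0.67 with the block, adjusted p = 0.22). The lower ends of the intervals without pairing leave room for a fall of up to 1.22-fold for GH3.3, 1.17-fold for WES1, 1.13-fold for GH3.17, 1.56-fold for GH3.9 and 1.89-fold for GH3.1. Of all tested probe sets 0% passed without pairing, where 528 had an unadjusted p under 0.05 (3.32%), and 0.578% passed with the block. GH3.3 passed in the paired fit without replicate 1 (0.73, adjusted p = 0.0227), an alternative added after the data were seen. The root hair genes EXPA7 and EXPA18 were not called in this comparison (adjusted p = 0.178 and 0.115 with the block). Both were higher with L-AOPP in replicates 2 and 3 and lower in replicate 1. EXPA7 had 582 and 775, against 259 and 320 in mock, and in replicate 1 it had 1590, against 1929. The part of these 2 genes in the GH3 values was not tested.

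IPyA with L-AOPP was also set against mock. GH3.3 averaged 789 ± 544 in L-AOPP+IPyA plants and 550 ± 263 in mock plants (SD, n = 3 each), a log2 difference of 0.43 (95% interval -0.55 to 1.41). WES1 averaged 1810 ± 609 in L-AOPP+IPyA plants and 1438 ± 287 in mock plants (0.30, -0.32 to 0.91). None of the 5 passed in either fit, as none of all tested probe sets did (0%; 150, or 0.942%, had an unadjusted p under 0.05 without pairing). By the mean log2 signal, mock was the lowest group for each of the 5 genes. Above mock lay 52.9% of all tested probe sets with L-AOPP, 48.0% with L-AOPP+IAA and 51.5% with L-AOPP+IPyA. The share with mock as the lowest of all 4 groups is not given here. With quantile normalization mock was not the lowest for GH3.9, whose log2 difference from mock was -0.018 with L-AOPP and -0.0084 with L-AOPP+IAA. For GH3.3 and WES1 the order was IAA, L-AOPP, IPyA, mock, for GH3.1 it was IAA, IPyA, L-AOPP, mock, and below IAA no neighbours in these orders differed by the test. For GH3.17 (L-AOPP, IPyA, IAA, mock) and GH3.9 (IPyA, IAA, L-AOPP, mock) no neighbours differed at all by the test.

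The genes differ in what their variation over the 12 arrays goes with. Of the variance of the log2 signal, the treatment group took 91.1% for GH3.3, 85.4% for WES1 and 82.3% for GH3.1. It took 14.6% for GH3.17 and 3.53% for GH3.9, where the replicate number took 70.2% and 61.9%. The median tested probe set had 17.5% with the group and 47.4% with the replicate number. From the lowest to the highest group mean, GH3.3 spanned 19.2-fold, and 2 of 15922 tested probe sets spanned more. GH3.1 spanned 13.1-fold (5 spanned more) and WES1 4.10-fold (42 spanned more), while 45.5% of tested probe sets spanned less than GH3.17 (1.15-fold) and 36.7% less than GH3.9 (1.12-fold). These shares and spans come from the same arrays as the calls, so they are a description and no separate support.

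**Figure D3:**
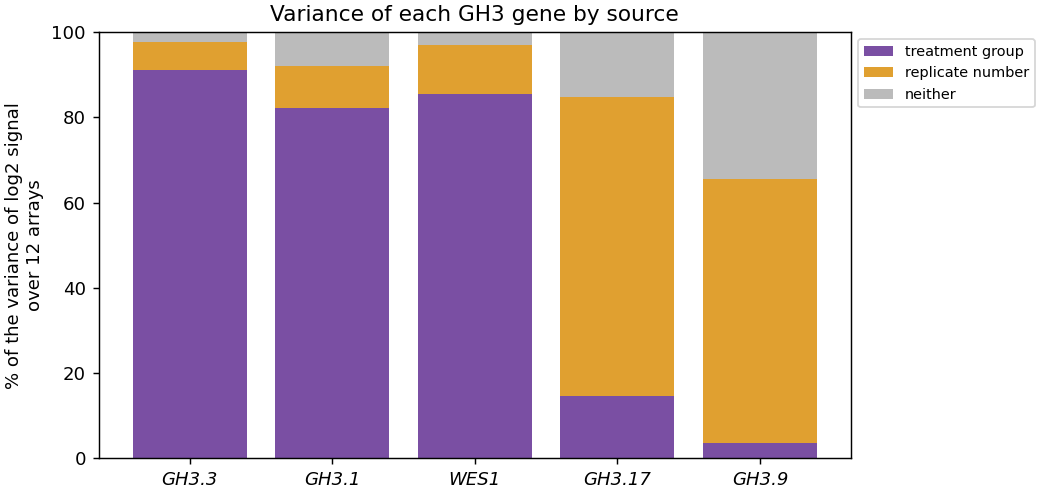
Share of the variance of the log2 signal over 12 arrays attributed to the treatment group, to the replicate number and to neither of them, for each GH3 gene. The group takes 91.1%, 82.3% and 85.4% for GH3.3, GH3.1 and WES1, and the replicate number 70.2% and 61.9% for GH3.17 and GH3.9.

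The spread between arrays of a group, relative to their mean, was smallest with IAA for GH3.3, GH3.1, WES1 and GH3.17, and in mock for GH3.9. For GH3.3 the coefficient of variation was 9.02% with IAA, 69.0% with IPyA, 40.9% with L-AOPP and 47.8% in mock. For WES1 it was 9.63% with IAA, 33.6% with IPyA, 35.9% with L-AOPP and 20.0% in mock. For GH3.1 it was 22.6% with IAA, 38.8% with IPyA, 46.6% with L-AOPP and 98.4% in mock, and for GH3.17 it was 10.9% with IAA, 16.4% with IPyA, 15.9% with L-AOPP and 16.8% in mock. With 3 arrays per group these are descriptions, and no test was made of them.

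Much of that spread followed the replicate number. In replicate 3 all 5 genes lay below the mean of their own group in all 4 groups, as did 25.8% of all tested probe sets, with mean log2 deviations of -0.50 for GH3.3, -0.38 for WES1, -0.37 for GH3.9, -0.31 for GH3.1 and -0.22 for GH3.17. In replicate 1, GH3.3 (0.62) and WES1 (0.33) lay above it in all 4 groups, which 20.4% of tested probe sets did. In replicate 2, GH3.17 (0.17) lay above it in all 4 groups, as did 26.7% of tested probe sets. GH3.1 had its highest mean deviation in replicate 2 (0.72), above its group mean in 3 of 4 groups, and in mock its signal there was 205, against 29.5 and 54.8. With IAA its highest array was replicate 1 (1135).

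Tissue markers and an RNA quality control also followed the number. EXPA7 averaged 1595 ± 286 in replicate 1 (SD over the 4 groups), 399 ± 138 in replicate 2 and 503 ± 193 in replicate 3, and EXPA18 was likewise highest in replicate 1 in all 4 groups. LHCB4.2 averaged 19621 ± 2010, 18124 ± 523 and 14685 ± 538 in replicates 1, 2 and 3. The ratio of 3′ to 5′ signal of the GAPDH control was 1.36 ± 0.0749, 1.38 ± 0.106 and 1.17 ± 0.0486. Their part in the replicate pattern of the GH3 genes was not tested. Neither root hair gene was called in any comparison, with or without the block. EXPA18 had 1062, 272 and 395 in L-AOPP+IAA plants, against 1145, 549 and 765 in L-AOPP plants, lower in all 3 replicates (log2 difference -0.69, adjusted p = 0.0507 with the replicate number as a block). A lower signal in all 3 replicates was shared by 20.1% of all tested probe sets. EXPA7 had 1631, 416 and 442 in L-AOPP+IAA plants and 1590, 582 and 775 in L-AOPP plants (-0.42, adjusted p = 0.404 with the block). It was higher with IAA in replicate 1 and lower in replicates 2 and 3. With IPyA both root hair genes were lower than with L-AOPP alone in all 3 replicates, as were 16.6% of all tested probe sets. Their adjusted p with the block was 0.361 for EXPA7 and 0.267 for EXPA18. LHCB4.2 averaged 17819 ± 2459 in L-AOPP+IAA plants and 17781 ± 3729 in L-AOPP plants (0.015, adjusted p = 0.953 with the block). The rises of GH3.3, GH3.1 and WES1 with IAA were present within each replicate number, and so was the lower EXPA18 signal. The part of these markers in the GH3 differences was not tested.

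**Figure D4:**
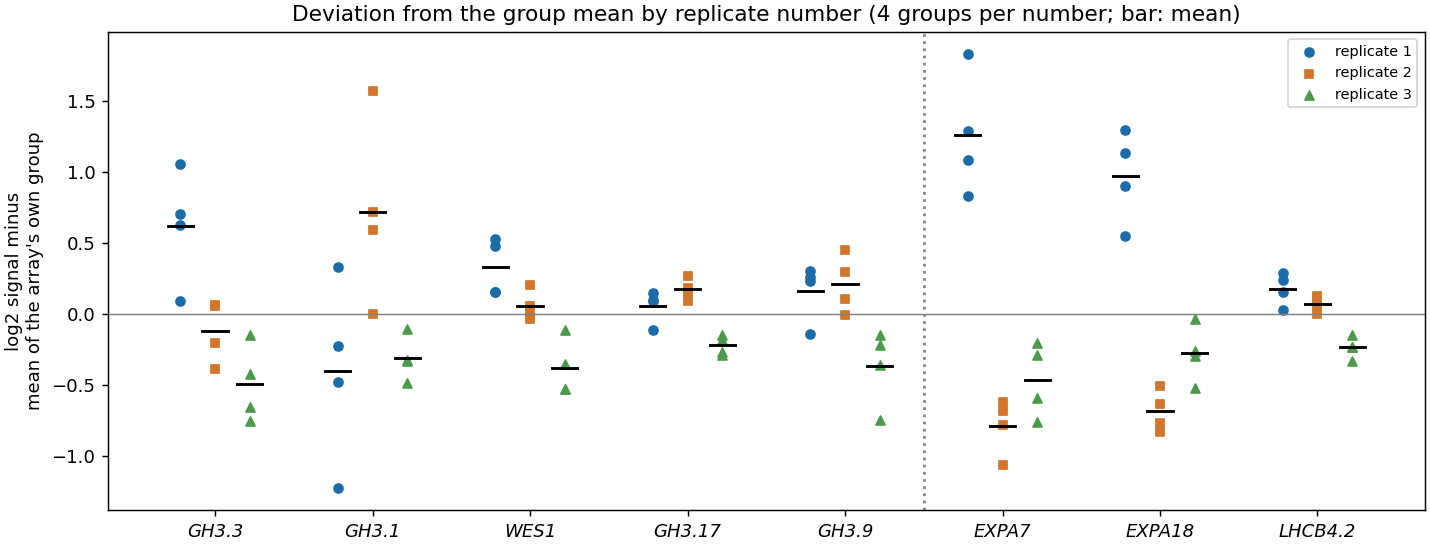
Log2 signal of each array minus the mean of its own treatment group, by replicate number, for the 5 GH3 genes and, right of the dotted line, the root hair genes EXPA7 and EXPA18 and the shoot gene LHCB4.2; each point is 1 of 4 groups and bars are means. Replicate 3 lies below 0 for all 5 GH3 genes in all 4 groups, and EXPA7 stands out in replicate 1 (mean deviation 1.26).

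The genes whose profiles were closest to each responsive member were found from the root-mean-square difference of log2 signals over the 12 arrays, each profile centred on its own mean, among 8707 other tested probe sets with 1 gene. For GH3.3 they were IAA30 (0.72) and IAA29 (0.74), which encode Aux/IAA repressors, HAT2 (0.84), a homeobox-leucine zipper transcription factor gene, WES1 (0.96) and AT3G51410 (0.97). For GH3.1 they were IAA30 (0.67), HAT2 (0.77), IAA29 (0.78), AT3G09280 (0.92) and AT3G50900 (0.95). For WES1 they were AT4G37295 (0.29), AT3G26760 (0.31), LBD16 (0.35), a transcription factor gene of lateral root initiation, CLE44 (0.36), which encodes a signalling peptide precursor, and AT5G62280 (0.37). The distance is not scaled to the size of a profile, so it is not comparable between members. The group means of the members span 4.27 (GH3.3), 3.71 (GH3.1) and 2.04 (WES1) on the log2 scale. Without IAA, the group means of IAA29 and IAA30 were 32.7 to 44.4 and 40.7 to 48.2, near or under the filter level. Both genes were thus among the compared probe sets through the group where they are high. AT3G09280 had group means of 43.3 to 54.6 without IAA and 196 with IAA. Without IAA it was also near the filter level, so its inclusion may rest on the same group. The neighbours of GH3.3 and GH3.1 were picked for their match over these same arrays, so their closeness is a description. With IAA against L-AOPP, AT3G51410 (adjusted p = 0.537) and AT3G50900 (0.0564) were not called without pairing. With the block they were called (0.000655 and 0.000349).

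These 5 neighbours of WES1 were picked for their match over the same 12 arrays, so their changes with IAA against L-AOPP, 0.94 to 1.76 on the log2 scale beside 1.65 for WES1, follow from the choice and are given as a description. LBD16 averaged 831 in L-AOPP+IAA plants and 248 in L-AOPP plants, and AT5G62280 averaged 2133 and 1082 in the same groups. The changes of AT5G62280 (adjusted p = 0.306) and AT3G26760 (0.0635) were not called without pairing. With the block they were called (0.000239 and 0.000115).

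Of 19 loci listed for the GH3 family, 11 had a probe set of their own. Beside the 5 members, AT1G48660 was tested and AT1G23160, AT5G51470, AT5G13350, AT5G13380 and AT1G48670 were too dim, with no array above 59.2. AT1G48660 averaged 974 ± 191 in L-AOPP+IAA plants and 990 ± 254 in L-AOPP plants (log2 change -0.01, 95% interval -0.63 to 0.61). Thus 3 of 6 tested loci of the family list rose with IAA, and these are the 3 members already counted. Of all tested probe sets 0.358% were called as higher. That 0 loci of the list fell says little, since only 0.0377% of all tested probe sets were called as lower. The other 8 loci of that list were not analysed here.

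Of 7 genes listed for other routes of auxin removal, 5 had a probe set and 3 were tested. None of these 3 was called in any comparison. At most 0.446% of all tested probe sets passed in a comparison without pairing, and at most 3.71% with the block. The absence of calls among 3 genes is therefore no contrast with the GH3 genes. UGT74D1, which encodes an auxin glucosyltransferase, averaged 1813 ± 91.5 in L-AOPP+IAA plants and 1985 ± 200 in L-AOPP plants, a log2 change of -0.13 (95% interval -0.35 to 0.09). AT1G14130 changed by -0.07 (-0.46 to 0.33) and AT1G14120 by 0.09 (-0.42 to 0.61). The glucosyltransferase genes UGT84B1 and UGT84B2 were too dim to test, with no array above 18.7 and 23.0. The list's median change with IAA was -0.07, and that of all tested probe sets -0.01.

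On the supply side, 1 of 21 listed auxin synthesis genes could be tested. YUC2, which encodes an enzyme that turns IPyA into IAA, averaged 128 ± 7.04 in L-AOPP+IAA plants, 170 ± 17.9 in L-AOPP+IPyA plants, 146 ± 37.6 in L-AOPP plants and 122 ± 15.1 in mock plants. It was not called in any comparison; its largest difference was 0.48 between L-AOPP+IPyA and mock (95% interval 0.05 to 0.91, adjusted p = 1.00). YUC4, YUC6 and YUC11 were too dim to test. Of 29 listed Aux/IAA repressor genes, 7 had a probe set and 4 were tested. IAA29 averaged 236 ± 30.1 in L-AOPP+IAA plants and 44.4 ± 14.97 in L-AOPP plants, and IAA30 averaged 322 ± 38.7 and 48.2 ± 11.4 in the same groups (SD, n = 3 each). Without IAA their group means were 32.7 to 44.4 and 40.7 to 48.2, near or under the filter level of 47.4, so they passed the filter through the group where they are high, and no count or median of their list is drawn from them. The lists of conjugate hydrolases, auxin receptors and ARF transcription factors had 0 named probe sets, so they were not analysed here.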

How the data were processed

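The deposited table holds a linear signal intensity for each probe set, which the authors computed with MAS5, per the submitters' processing notes, from 1-colour arrays; its version is not given in the sources used here. All arrays have the same mean of 500 once 2% of the values are trimmed from either end, so they had been scaled. Of 22810 probe sets, 64 controls and 6824 whose mean log2 signal did not exceed the 30th percentile (47.4 on the signal scale) were left out, and 15922 were tested. Values under 0.05 were raised to 0.05, log2 was taken, and limma 3.58.1 in R 4.3.3 (lmFit, eBayes with an intensity trend, two-sided) was fitted over all 12 arrays. A gene was called at a Benjamini-Hochberg adjusted p under 0.05 over all tested probe sets of a comparison. The fit was tested on simulated data. The main fit used no pairing, and limma values come from it unless pairing or the block is named. The block fit and the ratios within replicates paired the arrays by replicate number. The 18 correlations of deviations between same-numbered arrays were 0.501 to 0.685, against -0.582 to 0.123 for 36 others. Names come from the platform annotation, with loci from RefSeq; coordinates and sequences were not used here. The members and gene lists were chosen with earlier results of these data known. Named are the 5 members, the 5 nearest profiles of GH3.3, GH3.1 and WES1, and listed pathway genes.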

Additional observations from a re-analysis of the deposited data

How the results depend on the processing

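The precision is limited by 3 arrays per group and, for GH3.1 without IAA and GH3.9 throughout, by dim signals. The 3 rises with IAA and the 3 differences of IPyA from IAA kept their direction under every alternative run. With the replicate number as a block, no call of a member changed in any of the 6 comparisons. The number of members called was 3 in each of the 3 comparisons that involve L-AOPP+IAA; with 1 array left out it was 1 to 2 against L-AOPP, 1 to 3 against mock and 1 to 2 for IPyA against IAA, and 3 in every paired fit without a replicate number, an alternative added after the data were seen. For L-AOPP against mock it was 0, or 1 in the paired fit without replicate 1 (GH3.3). The share of all tested probe sets that passed in the fits with arrays left out is not given here, so these counts are a description. The GH3.1 difference lost its call for IPyA against IAA without the intensity trend (-3.12, adjusted p = 0.0659) and without the filter on dim probe sets (adjusted p = 0.0567), and for IAA against mock in a fit of only those groups (3.71, adjusted p = 0.11). In that fit the spread is estimated without the other arrays. The 6 planned differences in response moved by less than the spread between arrays in each setting.

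Uncalled values near 0 changed sign. GH3.9 turned to -0.018 (L-AOPP against mock) and -0.0084 (IAA against mock) with quantile normalization and to -0.018 (IAA against L-AOPP) with median centring. With arrays left out, from either fit, GH3.9 ran from -0.19 to 0.42 (L-AOPP against mock), -0.37 to 0.23 (IAA against L-AOPP), -0.080 to 0.23 (IAA against mock), -0.25 to 0.35 (IPyA against L-AOPP) and -0.060 to 0.32 (IPyA against IAA). GH3.17 ran from -0.20 to 0.030 (IAA against L-AOPP), -0.16 to 0.12 (IPyA against L-AOPP) and -0.056 to 0.18 (IPyA against IAA). GH3.1 ran from -0.26 to 1.14 (L-AOPP against mock), -0.060 to 0.59 (IPyA against L-AOPP) and -0.030 to 1.37 (IPyA against mock). GH3.3 ran from -0.79 to 0.071 (IPyA against L-AOPP) and -0.098 to 0.78 (IPyA against mock), WES1 from -0.36 to 0.17 (IPyA against L-AOPP), and the difference in response of GH3.3 and GH3.1 from -0.24 to 0.65. The causes were not tested.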

Other observations

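Another listed auxin gene, IAA34, was left out by the filter on dim probe sets and was picked here after its values were seen. It encodes an Aux/IAA family protein. Its signals were 291, 214 and 140 in L-AOPP+IAA plants, against 35.5, 64.8 and 28.6 in L-AOPP plants, and the groups did not overlap. With no filter on dim probe sets its log2 change was 2.35 ± 0.71 (SE), which was not called (adjusted p = 0.419). A mock array stood at 4.6, against 40.9 and 32.0 on the others.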
